A study of Mus musculus with 3 samples.

Results

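Transcripts of 10 genes that receive, carry or restrain the signal of transforming growth factor beta (TGF-beta) inside the cell were followed across the cell classes of the infarcted mouse heart. The members were a fixed list by function, 10 of the 29298 genes in the files: the receptors Tgfbr1 and Tgfbr2, the receptor-activated Smads Smad2 and Smad3, the common partner Smad4, the inhibitors Smad7 and Smurf2, and the nuclear repressors Ski, Skil and Tgif1. All 10 were found in the files. For each class, every one of them had molecules in each tag that held at least 20 cells of that class. The cells came from hearts of F7fl/fl CX3CR1Cre mice and of F7fl/fl WT mice after permanent ligation of a coronary artery, taken at several times after infarction. All animals therefore carried floxed alleles of F7, the gene of coagulation factor VII, and those with CX3CR1Cre also carried a Cre recombinase driven by the promoter of the fractalkine receptor gene, which is active in monocytes and many macrophages. The animals' ages are not given in the labels. CD45-positive cells were selected on beads, the cells of each biological replicate were given a sample tag, and the tagged cells were pooled into 3 multiplexed libraries with 7, 5 and 6 tags. Neither labels nor file headers assign a genotype or a time to single tags. The name of library 1 carries d3, which may stand for a day after infarction, and those of libraries 2 and 3 carry no such mark. For that reason no genotype or time was compared with another, and all comparisons set cell classes of the same tag against each other.

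TGF-beta binds the type II receptor encoded by Tgfbr2, which then phosphorylates the type I receptor encoded by Tgfbr1, and that kinase in turn phosphorylates Smad2 and Smad3. The phosphorylated Smads join Smad4 and enter the nucleus, where they bind DNA with other factors, while Smad7 blocks the receptor and brings ubiquitin ligases such as Smurf2 to it, and Ski, SnoN (from Skil) and Tgif1 recruit corepressors to Smad target genes. In the healing infarct this pathway is known for damping inflammation in leukocytes and for driving fibroblasts to deposit matrix. Transcript levels do not report the phosphorylation steps through which the pathway signals.

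Cells were classed by a fixed rule on transcripts that are not members: T cells by Cd3 genes, B cells by Cd79a, neutrophils by S100a8, S100a9 and Csf3r, fibroblasts by collagen genes and Dcn, macrophages by C1q genes, dendritic cells (DC) by Flt3 and monocytes by Ly6c2. Of 25640 cells with at least 200 genes, 14977 were macrophages, 2422 monocytes, 1362 DCs, 488 neutrophils, 1225 T cells, 779 B cells and 415 fibroblasts, and 3972 (15.5%) met no definition. The libraries held 349827525, 88848415 and 93681505 molecules, and single tags held 10136595 to 62344127. The median cell ranged from 3997 molecules in neutrophils to 26512 in fibroblasts. Sums of 6 markers that the rule did not use were each highest in the class they name. The 6 fibroblast markers, for example, summed to a median of 21673 counts-per-million (CPM) in fibroblasts and 52.0 in macrophages, and the CD45 transcript Ptprc stood at 76.0 CPM in fibroblasts and 712 in macrophages. Macrophage markers nevertheless summed to more than the class's own markers in T cells (2184 against 2008 CPM), B cells (2650 against 1440) and DCs (1082 against 1075). In DCs the monocyte markers did too, at 1879 CPM. In macrophages, monocytes, neutrophils and fibroblasts the class's own markers had the largest sum. Levels below are CPM: the molecules of a gene in all cells of a class and tag, relative to all molecules of those cells, for tags with at least 20 cells of the class. Libraries 1 and 2 shared 4 cell barcodes, libraries 1 and 3 shared 3 and libraries 2 and 3 shared 0. In CPM of whole classes, fewer cells with a transcript and less transcript per cell cannot be told apart.

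Over all tags, macrophages had the highest median of Tgfbr1 among the 7 classes and the lowest of Smad3, Smad4, Smad7 and Smurf2. In libraries 2 and 3 alone, Smad3 was lower in DCs (22.4 CPM) than in macrophages (24.9), and Smurf2 was lower in monocytes (40.1), DCs (43.7) and T cells (46.1) than in macrophages (49.2). In differences fitted within tags, Tgfbr1 and Tgfbr2 were higher in macrophages in 5 of 6 comparisons each, and Smad4 and Smad7 were lower in all 6. The difference of Tgfbr1 from neutrophils did not pass, nor did those of Smad3 from DCs and fibroblasts or of Smurf2 from DCs, T cells and B cells. Without library 1 the Smad4 call was kept only against DCs, and Smad7 lost those against monocytes and neutrophils. Tgfbr2 lost the call against neutrophils without library 1, that against fibroblasts without library 3, and that against T cells without library 2 or library 3. The 6 comparisons share their macrophage samples, and their p-values measure the spread between tags. The 60 tests of 10 members in 6 comparisons gave 19 calls higher in macrophages, 23 lower and 18 that did not pass an adjusted p of 0.05. Such calls were frequent among all genes too. Against monocytes 2 members were higher in macrophages and 5 lower, where 32.5% of all genes tested were higher and 32% lower (64.6% in either direction). Against DCs 4 members were higher and 3 lower, beside 36.1% and 29.7% of all genes (65.8%). Against neutrophils 1 was higher and 6 lower, beside 39.8% and 19.9% (59.7%). For T cells the members' counts were 4 and 3, beside 33.9% and 32.4% (66.3%), and for B cells 3 and 3, beside 25.1% and 24.5% (49.6%). For fibroblasts they were 5 and 3, beside 34.6% and 32.9% (67.4%). The members were thus called about as often as genes in general, and what follows rests on the direction and size for each gene.

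**Figure D1:**
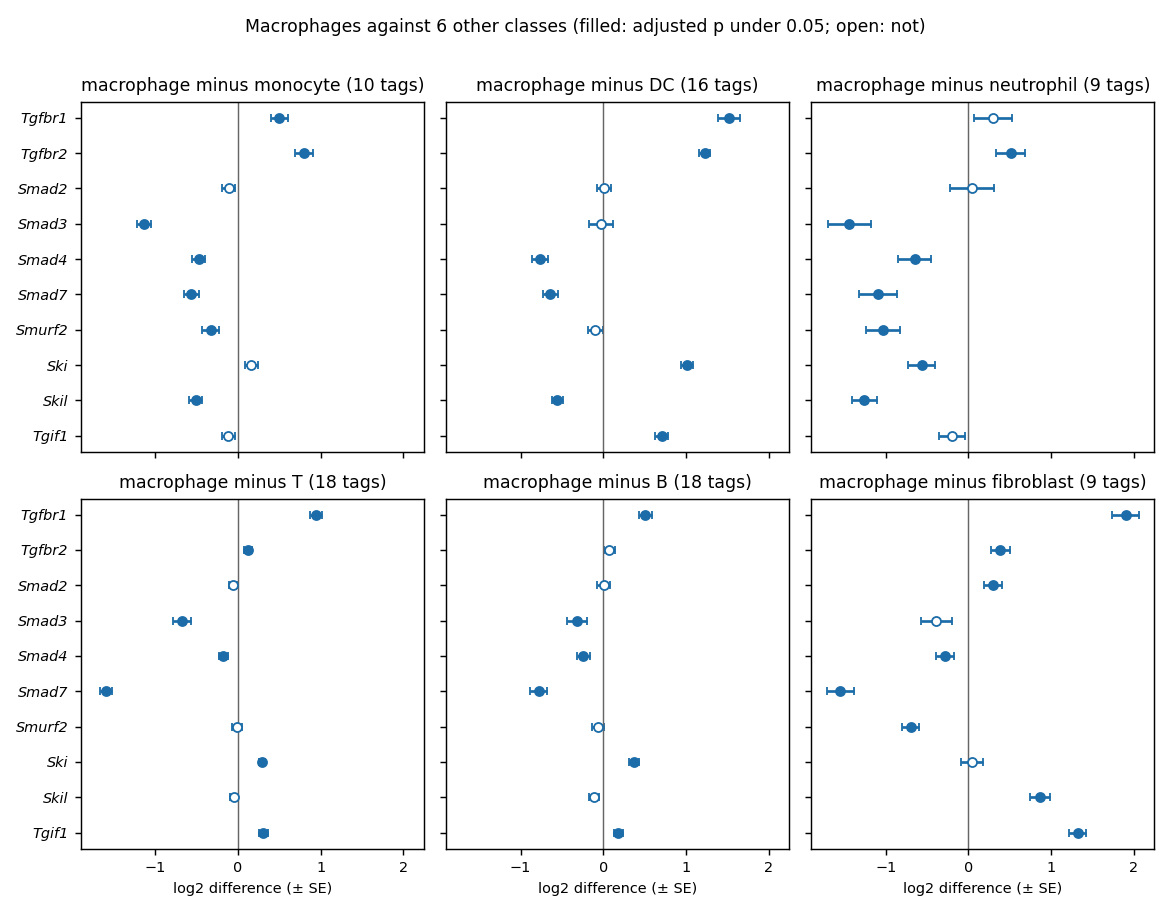
Fitted log2 difference between macrophages and each of 6 classes (x axis, log2 units) for the 10 genes (rows), with the standard error as bars; filled points passed an adjusted p of 0.05. Tgfbr1 lies at 1.90 against fibroblasts and 1.52 against DCs, and Smad7 lies left of 0 in all 6 panels.

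Tgfbr1 encodes the type I receptor kinase. It ranged over the 18 macrophage tags from 99.4 to 285 CPM with a median of 176. In fibroblasts it ran from 34.4 to 82.4 CPM with a median of 51.7 over 9 tags, and in DCs from 20.4 to 107 with a median of 64.6 over 16. Macrophage and fibroblast tags did not overlap, and DC tags reached just into the macrophage range. The fitted difference was 1.90 ± 0.16 (log2, SE) against fibroblasts, a 3.73-fold higher level in macrophages in 9 of 9 tags (adjusted p = 2.83e-08). Against DCs it was 1.52 ± 0.13, 2.87-fold, in 16 of 16 tags (adjusted p = 3.42e-10). T cells had a median of 92.8 CPM (55.0 to 151), monocytes 93.9 (43.2 to 122) and B cells 119 (62.5 to 289), and all of these ranges overlapped with the macrophages. Within tags macrophages were nevertheless higher than T cells in 18 of 18 (0.94 ± 0.07, adjusted p = 1.43e-11), than monocytes in 10 of 10 (0.50 ± 0.10, adjusted p = 0.000591) and than B cells in 16 of 18 (0.51 ± 0.08, adjusted p = 1.17e-05). Neutrophils came next in order with a median of 126 CPM but spread from 9.76 to 178. The lowest of these values was 1 molecule in tag 8 of library 3, where 3 molecules would have made 29.3 CPM. Many cells classed as T or B cells also met another definition, and without them the differences rose to 2.15 for T cells, whose tags then all lay below those of macrophages, and 1.08 for B cells. The difference of 0.30 ± 0.23 between macrophages and neutrophils did not pass (adjusted p = 0.26) and passed without library 1 (0.71, adjusted p = 0.046, 4 tags).

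Tgfbr2 encodes the type II receptor, which binds the ligand and starts the cascade. Its 3 highest classes were nearly level, with medians of 154 CPM in T cells (100.1 to 182), 151 in macrophages (113 to 182) and 149 in B cells (92.9 to 260). DCs had a median of 71.5 CPM (37.9 to 85.9), below every macrophage tag, and monocytes had 74.6 (27.8 to 122). Macrophages exceeded DCs by 1.23 ± 0.07 on the log2 scale in 16 of 16 tags (2.34-fold, adjusted p = 1.32e-13) and monocytes by 0.80 ± 0.11 in 10 of 10 (1.74-fold, adjusted p = 8.80e-06). Fibroblasts (75.3 to 149 CPM, median 126) were lower than macrophages in 9 of 9 tags, by 0.39 ± 0.11 (adjusted p = 0.00696). That call did not hold without library 3 (0.21, adjusted p = 0.251, 4 tags). Against neutrophils (58.7 to 152 CPM, median 89.8) the difference was 0.51 ± 0.18 (adjusted p = 0.015) and did not pass without library 1 (0.52, adjusted p = 0.157). Against T cells the fit gave 0.12 ± 0.05 higher in macrophages (adjusted p = 0.0428, 13 of 18 tags), opposite to the order of the medians. It was lost without library 2 (0.09, adjusted p = 0.179), without library 3 (0.08, adjusted p = 0.334) and without the tag as a block (0.12, adjusted p = 0.144). Against B cells it was 0.07 ± 0.07 (adjusted p = 0.37).

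The promoter windows of the 4 members that were higher in macrophages than in DCs in every tag are shown, since these genes stood apart between the same classes together. Tgfbr1 has 2 windows in the RefSeq table and Tgif1 has 5, of which the most upstream is printed. The windows span 250 bases before to 50 after the transcription start in RefSeq (assembly GRCm38.p6), 5′ to 3′ on the gene's strand. Capitals mark CAGAC, the core of the Smad-binding element, found on either strand. Tgfbr1 (chr4:47352972-47353271, plus strand), Tgfbr2 (chr9:116175314-116175613, minus strand), Ski (chr4:155222486-155222785, minus strand) and Tgif1 (chr17:70853483-70853782, minus strand) read as follows.
Tgfbr1: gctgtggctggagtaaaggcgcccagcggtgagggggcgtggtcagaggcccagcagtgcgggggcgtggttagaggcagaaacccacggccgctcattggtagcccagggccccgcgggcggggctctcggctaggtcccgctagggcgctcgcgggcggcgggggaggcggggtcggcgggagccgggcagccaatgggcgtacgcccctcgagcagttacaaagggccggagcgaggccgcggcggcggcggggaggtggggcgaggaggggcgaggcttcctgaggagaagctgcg
Tgfbr2: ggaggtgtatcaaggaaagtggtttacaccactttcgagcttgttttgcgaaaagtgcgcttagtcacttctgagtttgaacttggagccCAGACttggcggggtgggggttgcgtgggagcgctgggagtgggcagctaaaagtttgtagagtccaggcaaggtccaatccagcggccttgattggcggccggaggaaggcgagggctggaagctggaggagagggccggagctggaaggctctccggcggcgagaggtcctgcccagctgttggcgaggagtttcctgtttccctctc
Ski: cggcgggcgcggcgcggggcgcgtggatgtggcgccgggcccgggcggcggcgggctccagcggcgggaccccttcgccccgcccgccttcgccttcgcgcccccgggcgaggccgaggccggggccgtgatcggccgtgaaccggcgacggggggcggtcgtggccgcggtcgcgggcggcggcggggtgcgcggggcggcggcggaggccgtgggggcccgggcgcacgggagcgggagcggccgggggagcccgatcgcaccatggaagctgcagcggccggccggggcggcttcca
Tgif1: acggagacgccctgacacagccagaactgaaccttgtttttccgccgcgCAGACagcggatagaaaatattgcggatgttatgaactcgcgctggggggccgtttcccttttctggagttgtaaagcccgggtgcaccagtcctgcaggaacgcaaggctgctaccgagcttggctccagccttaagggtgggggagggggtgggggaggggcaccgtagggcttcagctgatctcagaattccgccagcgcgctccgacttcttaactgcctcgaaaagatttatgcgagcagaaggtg
The windows of Tgfbr2 and Tgif1 held 1 match each, and those of Tgfbr1 and Ski shown here held 0. The other Tgfbr1 window held 1 match, and 3 of the 5 Tgif1 windows held the motif. GC content was 74.7% for Tgfbr1, 59% for Tgfbr2, 85.3% for Ski and 58% for Tgif1 in the windows printed. Of the members 6 had an entry, with 11 windows in all, of which 6 windows from 4 genes held the motif, beside 49.6% of all 32851 windows. The palindrome GTCTAGAC was in 0 of the 11 windows and in 0.213% of all. A match is only a run of letters in this window, and binding was not measured.

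In the annotation of the same build (GENCODE M21), Tgfbr1 spans 47353222 to 47414931 on chromosome 4, Tgfbr2 spans 116084293 to 116175360 and Smad3 63646767 to 63757994 on chromosome 9. Ski spans 155154075 to 155222592 on chromosome 4, Smurf2 spans 106820066 to 106920715 on chromosome 11, Skil 31095058 to 31122577 on chromosome 3 and Tgif1 70844205 to 70853546 on chromosome 17. Smad2, Smad4 and Smad7 lie on chromosome 18. Smad4 overlaps a processed pseudogene on the opposite strand and Smurf2 a microRNA gene on its own strand. The files do not say how reads there were assigned.

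**Figure D2:**
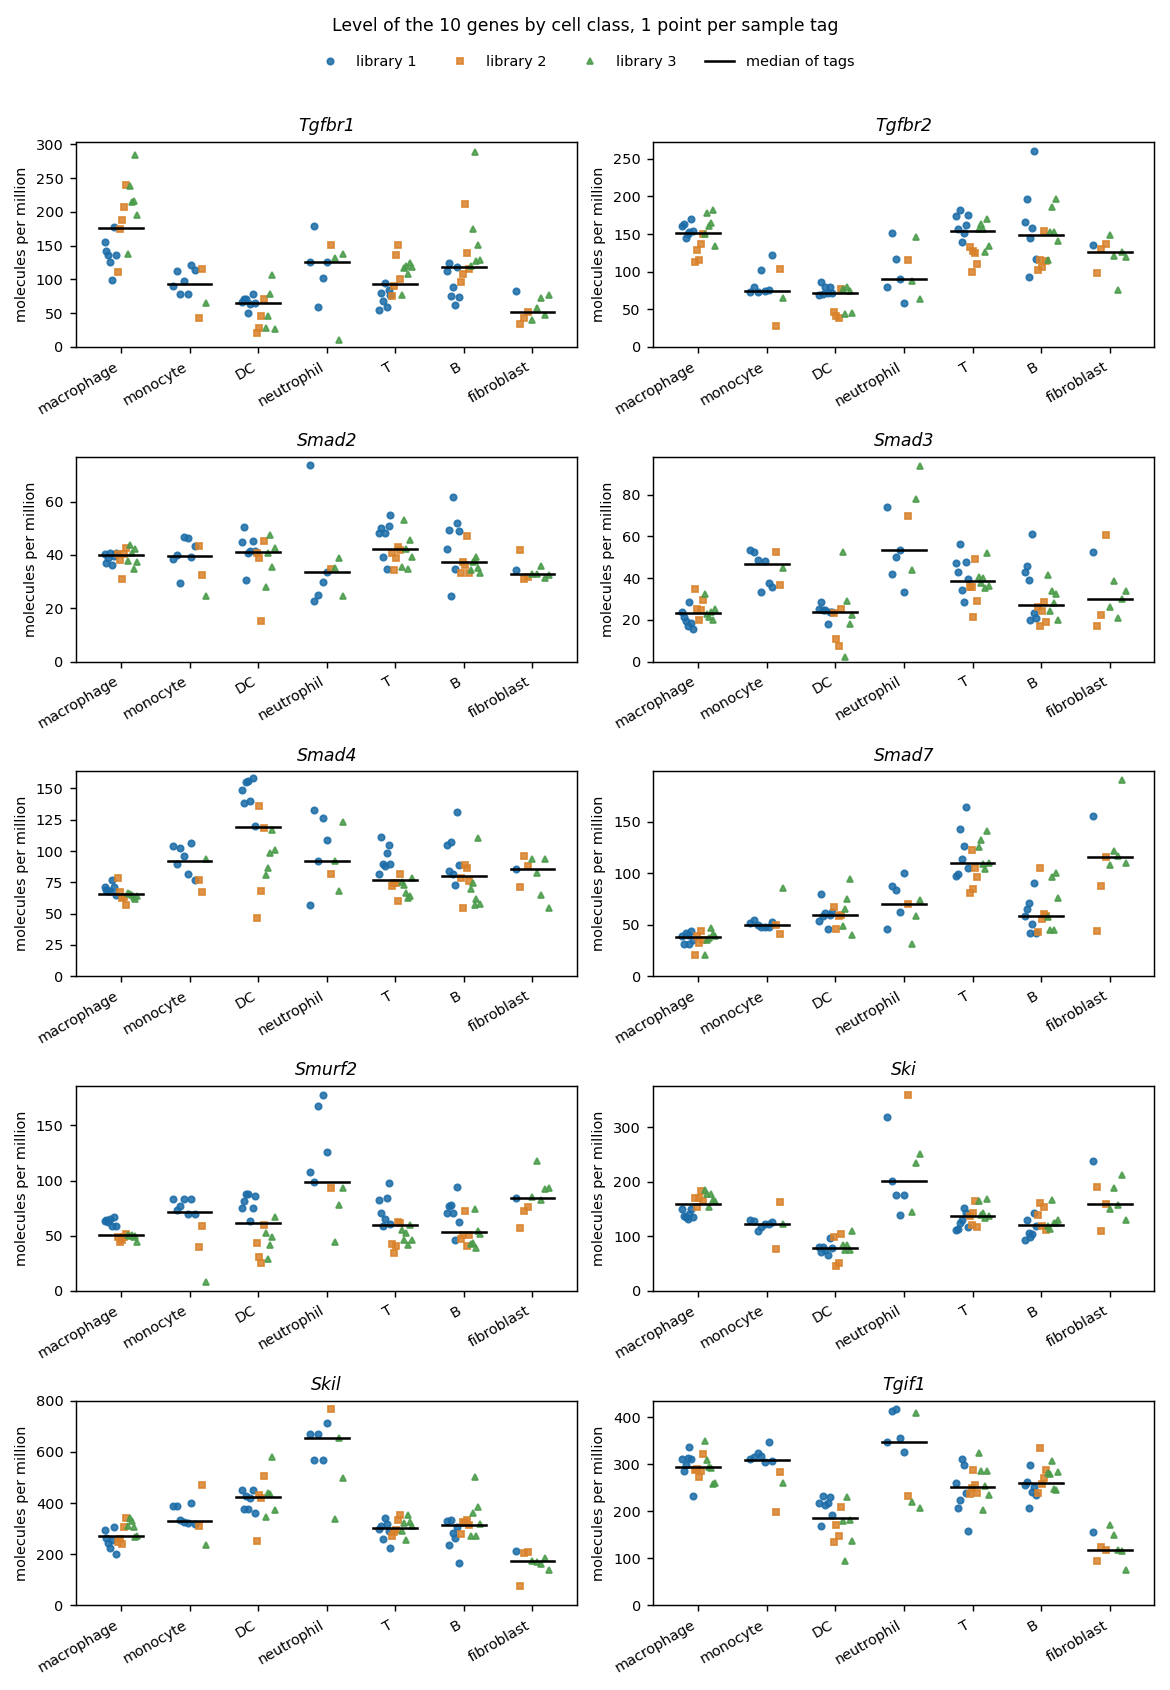
Level of each gene (y axis, CPM of the class, linear and from 0) in 7 classes, with 1 point per sample tag, colour and shape for the library, and a line at the median of the tags. Tgfbr1 in macrophages runs from 99.4 to 285, and Skil in neutrophils from 338 to 766.

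Smad2 and Smad3 are the receptor-activated Smads, which Tgfbr1 phosphorylates. Smad2 varied least of the 10 across classes, from a median of 32.7 CPM in fibroblasts to 42.2 in T cells, a 1.29-fold span. Its macrophage tags lay between 30.9 and 43.9 CPM with a median of 39.9, inside the range of most other classes. Only the difference from fibroblasts passed (0.29 ± 0.11, adjusted p = 0.0267, 8 of 9 tags), and it did not without library 2 (adjusted p = 0.0525) or library 3 (adjusted p = 0.269). The 5 other differences lay between −0.12 and 0.045 on the log2 scale.

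Smad3 spanned 2.31-fold across classes. Its median was 53.4 CPM in neutrophils (33.5 to 93.6), 46.6 in monocytes (33.2 to 53.3), 38.6 in T cells (21.3 to 56.1) and 23.2 in macrophages (15.8 to 34.6). The lowest monocyte and neutrophil tags sat near the top of the macrophage range. Macrophages were lower by −1.14 ± 0.09 against monocytes in 10 of 10 tags (adjusted p = 3.57e-08) and by −1.44 ± 0.26 against neutrophils in 9 of 9 (adjusted p = 1.42e-05). Without library 1 the difference from monocytes was −0.64 over 3 tags (adjusted p = 0.255). Against T cells it was −0.68 ± 0.11 (adjusted p = 7.52e-06, lower in 15 of 18 tags) and against B cells −0.32 ± 0.12 (adjusted p = 0.0292, 14 of 18). The call against B cells rested on library 1, since it was −0.05 without that library (adjusted p = 0.811), and it was also lost without library 3 (−0.35, adjusted p = 0.0939). DCs had 23.7 CPM (2.41 to 52.5), and the difference of −0.02 ± 0.15 did not pass (adjusted p = 0.90). Fibroblasts had 29.8 CPM (17.2 to 60.8), also without a call (−0.39 ± 0.18, adjusted p = 0.0759).

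Smad4, the partner that all receptor-activated Smads share, was highest in DCs at a median of 119 CPM (46.7 to 158) and lowest in macrophages at 66.0 (56.9 to 78.2). Macrophages were lower than DCs in 15 of 16 tags, by −0.76 ± 0.10 (1.70-fold, adjusted p = 2.34e-07), with −1.005 in library 1, −0.475 in library 2 and −0.56 in library 3. They were lower than neutrophils by −0.65 ± 0.20 (adjusted p = 0.00495) and than monocytes by −0.48 ± 0.07 (adjusted p = 4.09e-05). The differences from fibroblasts (−0.28 ± 0.11, adjusted p = 0.0299), B cells (−0.24 ± 0.08, adjusted p = 0.0122) and T cells (−0.18 ± 0.05, adjusted p = 0.00666) were small. Without library 1 the call was kept only against DCs. The values without it were −0.19 against monocytes (adjusted p = 0.731), −0.57 against neutrophils (0.153), −0.09 against T cells (0.229), −0.15 against B cells (0.23) and −0.25 against fibroblasts (0.0657). Against fibroblasts the call was also lost without library 2 (−0.19, adjusted p = 0.261) and library 3 (−0.38, adjusted p = 0.0863).

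Smad7, the inhibitory Smad that the pathway itself induces, separated the classes more. Fibroblasts had a median of 115 CPM (44.3 to 190) and T cells 110 (80.5 to 164), against 37.8 in macrophages (20.1 to 47.0). Every T cell tag was above every macrophage tag, and the lowest fibroblast tag lay within the macrophage range. Macrophages were lower than T cells in 18 of 18 tags (−1.60 ± 0.08, 3.02-fold, adjusted p = 5.34e-15) and than fibroblasts in 9 of 9 (−1.55 ± 0.16, 2.93-fold, adjusted p = 4.01e-07). Neutrophils had 69.6 CPM (30.7 to 101), DCs 59.7 (40.3 to 94.3), B cells 58.4 (41.7 to 105) and monocytes 49.7 (40.7 to 85.7). Macrophages were below these by −1.10 ± 0.23 (adjusted p = 0.000126), −0.64 ± 0.09 (1.92e-06), −0.78 ± 0.10 (4.87e-07) and −0.57 ± 0.09 (5.46e-05) in that order. Without library 1 the neutrophil and monocyte calls were lost (−0.88, adjusted p = 0.0877, and −0.73, adjusted p = 0.196).

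Smurf2, a ubiquitin ligase that Smad7 brings to the receptor, was highest in neutrophils with 98.7 CPM (43.9 to 177) and fibroblasts with 84.5 (56.6 to 118), with the lowest median over all tags in macrophages, 50.7 (44.3 to 67.4). Macrophages were lower than neutrophils in 8 of 9 tags (−1.03 ± 0.20, adjusted p = 6.15e-05) and than fibroblasts in 9 of 9 (−0.70 ± 0.10, adjusted p = 1.89e-05). Without library 1 the neutrophil call was lost (−0.67, adjusted p = 0.131). Monocytes had 71.8 CPM, with 8.16 in the 1 tag of library 3 and 83.7 in the highest. In that tag of library 3 even 3 molecules would have made 12.2 CPM, so its value rests on fewer. The difference from monocytes was −0.33 ± 0.10 (adjusted p = 0.00854), it turned to 0.37 without library 1 (adjusted p = 0.624), and it did not pass without the tag as a block (−0.34, adjusted p = 0.0726). DCs, T cells and B cells did not differ from macrophages past the threshold, with −0.10, −0.01 and −0.06.

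Ski, Skil and Tgif1 encode repressors that meet the Smads in the nucleus, and all 3 had their highest median over all tags in neutrophils. In libraries 2 and 3 alone that held for Ski and Skil but not for Tgif1, which had 226 CPM in neutrophils (4 tags), 290.1 in macrophages and 279.5 in B cells. Skil, which encodes SnoN, had 654 CPM in neutrophils (338 to 766), 423 in DCs (251 to 581), 269 in macrophages (201 to 343) and 175 in fibroblasts (73.8 to 214). The lowest neutrophil tag overlapped with the highest macrophage tags. Macrophages were lower than neutrophils in 9 of 9 tags (−1.26 ± 0.15, 2.39-fold, adjusted p = 1.85e-08), than DCs in 15 of 16 (−0.56 ± 0.07, adjusted p = 9.31e-08) and than monocytes in 9 of 10 (−0.51 ± 0.08, adjusted p = 3.34e-05). The monocyte call was lost without library 1 (−0.26, adjusted p = 0.528). Macrophages were higher than fibroblasts in 9 of 9 tags (0.87 ± 0.12, adjusted p = 9.62e-06).

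Ski had medians of 201 CPM in neutrophils (139 to 360), 160 in fibroblasts (109 to 239), 159 in macrophages (131 to 184) and 78.4 in DCs (45.4 to 110). No DC tag reached the lowest macrophage tag. The difference from DCs was 1.01 ± 0.07 in 16 of 16 tags (2.01-fold, adjusted p = 1.67e-11). Macrophages were also above T cells in 18 of 18 tags (0.29 ± 0.04, adjusted p = 1.72e-06) and B cells in 16 of 18 (0.38 ± 0.06, adjusted p = 7.74e-06). They were below neutrophils by −0.56 ± 0.16 (adjusted p = 0.0035), which was lost without library 1 (−0.46, adjusted p = 0.162). The difference of 0.16 ± 0.08 from monocytes did not pass (adjusted p = 0.0865), and it passed without library 2 (0.13, adjusted p = 0.0345).

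Tgif1, a homeodomain repressor, had medians of 347 CPM in neutrophils (207 to 418), 308 in monocytes (198 to 347), 293 in macrophages (232 to 351), 187 in DCs (93.8 to 232) and 119 in fibroblasts (74.6 to 172). DC and fibroblast tags all lay below the macrophage tags. Macrophages were 2.50-fold above fibroblasts (1.32 ± 0.10, adjusted p = 7.19e-09, 9 of 9 tags) and 1.63-fold above DCs (0.71 ± 0.08, adjusted p = 1.58e-08, 16 of 16 tags). The differences from T cells (0.31 ± 0.05, adjusted p = 8.05e-06) and B cells (0.18 ± 0.05, adjusted p = 0.0061) were smaller, and the latter was lost without library 1 (0.09, adjusted p = 0.234). Neither neutrophils (−0.20 ± 0.16, adjusted p = 0.264) nor monocytes (−0.12 ± 0.08, adjusted p = 0.206) passed. The monocyte difference passed without library 2 (−0.16, adjusted p = 0.0282).

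The scale of the neutrophil comparison was shifted. The median log2 difference over all genes was 0.56 there, 0.73 with DESeq2 size factors, and between 0.01 and 0.08 in the 5 other comparisons. Relative to that median, the receptors lay at −0.27 (Tgfbr1) and −0.05 (Tgfbr2), and Smad3, Skil and Smad7 at −1.999, −1.82 and −1.66. All 10 members were therefore at or below the typical gene of that comparison, Tgfbr2 by the least.

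The count of members called against monocytes fell from 7 to 2 without library 1, which left 3 of 10 tags, and against neutrophils from 7 to 3, with 4 of 9 tags left. Against B cells it fell from 6 to 3 without library 1. Against fibroblasts it fell from 8 to 5 without library 3, which held 5 of the 9 fibroblast tags. Over all genes the calls fell in the same steps. Without library 1 they fell from 7191 to 896 against monocytes, from 6179 to 3846 against neutrophils and from 5244 to 3865 against B cells. Without library 3 they fell from 7593 to 5525 against fibroblasts.

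Of the cells classed as T cells 52.6% also met another definition, as did 52.1% of B cells and 11.1% of fibroblasts. Only the definitions of T cells, B cells, neutrophils, fibroblasts and macrophages were counted for this. Cells that also met the definition of DCs or monocytes were therefore not set apart. T cells carried a median of 3967 CPM of C1q transcripts and B cells 4485, beside 7503 in macrophages and 150 in monocytes. Without the cells of more than 1 definition, the C1q sum fell to a median of 236 CPM in T cells (14 tags) and 238 in B cells (9 tags), and the contrast of several members with macrophages grew. Tgfbr1 in T cells was then 37.7 CPM (16.3 to 85.2), below every macrophage tag, and the difference was 2.15 ± 0.16 (adjusted p = 4.01e-11), against 0.94 with all T cells. Smad3 and Smad7 in T cells rose to medians of 59.8 and 151 CPM, with differences of −1.20 ± 0.11 and −2.003 ± 0.13. In B cells Tgfbr1 was 87.2 CPM (61.9 to 128), with a difference of 1.08 ± 0.17 (adjusted p = 4.47e-05) against 0.51 before. For B cells the differences of Ski (0.70 ± 0.13) and Tgif1 (0.63 ± 0.11) also grew by more than 1.5 times, as did those of Smad3 (−0.63 ± 0.24) and Smad4 (−0.47 ± 0.12). For T cells that held for Ski (0.48 ± 0.09), Tgif1 (0.66 ± 0.09) and Tgfbr2 (0.31 ± 0.10) too. No doublet caller was run, and whether these cells are doublets or carry free RNA was not tested.

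**Figure D3:**
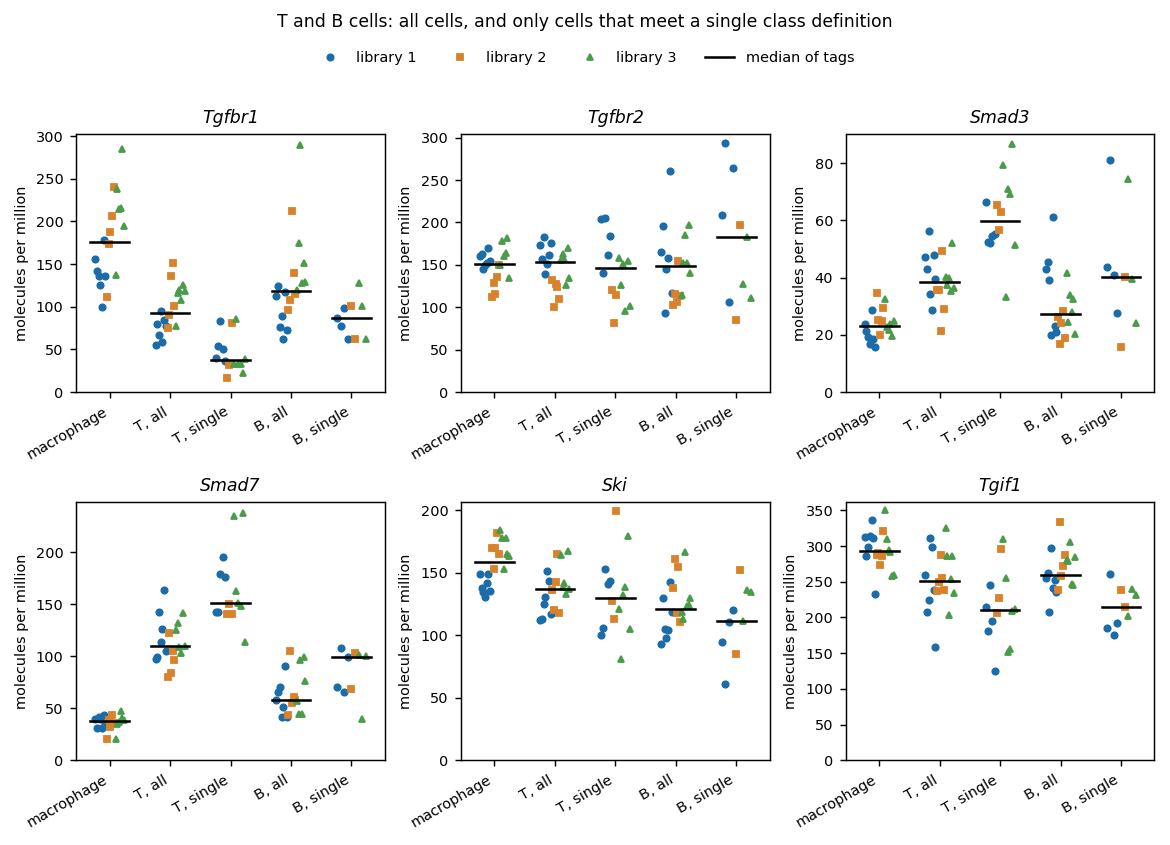
Level of 6 genes (y axis, CPM) in macrophages, in all T or B cells, and in T or B cells that met no other counted definition (single). The definitions of DCs and monocytes were not counted. Each point is 1 sample tag, with colour and shape for the library and a line at the median of the tags. The Tgfbr1 median falls from 92.8 to 37.7 in T cells, and the Smad7 median rises from 110 to 151.

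Among macrophages alone, Tgfbr1 was also the member that varied most between tags, with a coefficient of variation of 28.5% and a 2.86-fold range. Smad4 and Smad2 varied least, at 7.81% and 7.86%. Macrophage Tgfbr1 had medians of 136 CPM in library 1, 188 in library 2 and 215 in library 3, with ranges that overlapped (99.4 to 178, 112 to 240 and 138 to 285). Smurf2 went the other way, with 63.7 CPM in library 1 (58.7 to 67.4) and 48.68 and 50.035 in libraries 2 and 3, whose tags all lay below those of library 1. Ski had 138 CPM in library 1 (131 to 150) and 170 and 172 in the others, again without overlap. Library 1 was made on enhanced beads with a later pipeline release and with intronic reads kept, and its name alone carries d3, while no library's mix of genotypes is known, so these cannot be told apart.

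Tgfbr1, Tgfbr2, Smad4 and Smad7 kept their sign in every library that could be fitted, in all 6 comparisons. Ski also kept its sign within each comparison, negative against neutrophils and positive against the other classes. Tgfbr1 exceeded DCs by 1.11, 2.02 and 2.07 on the log2 scale in libraries 1 to 3, and T cells by 1.03, 0.75 and 0.99. Smad7 was below T cells by −1.57, −1.53 and −1.69. Tgfbr1 exceeded fibroblasts by 2.32 in library 2 and 1.97 in library 3. Smad3 against B cells changed sign, with −0.67 in library 1, 0.25 in library 2 and −0.25 in library 3, and Smad3 against DCs gave −0.22, 0.58 and 0.01.

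**Figure D4:**
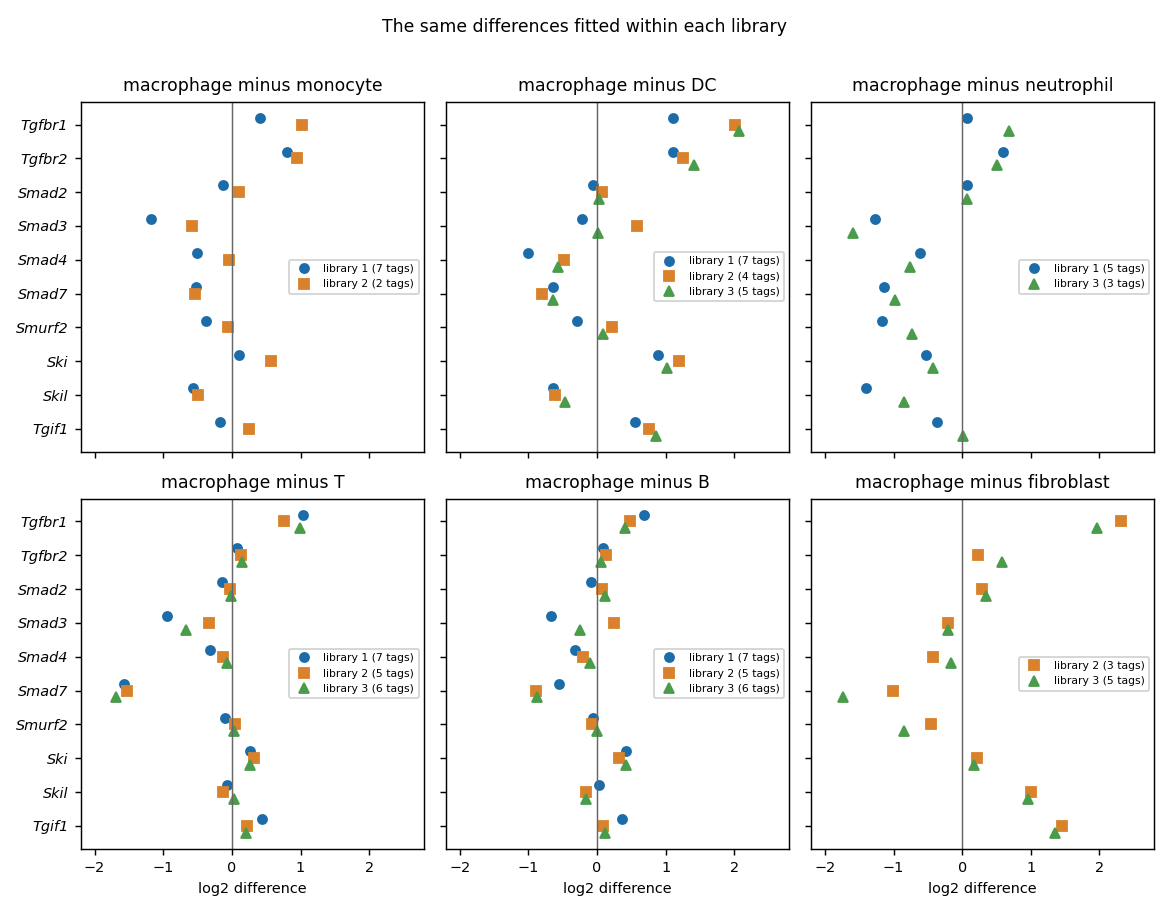
Log2 difference between macrophages and each of 6 classes (x axis) for the 10 genes (rows), fitted separately in each library that had at least 2 tags with both classes, colour and shape for the library. Tgfbr1 against DCs lies at 1.11 in library 1 and above 2 in libraries 2 and 3, and Smad7 against T cells at −1.57, −1.53 and −1.69.

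A list of 64 other genes of the pathway, 63 of them in the files, was read in the same fits. Against monocytes 10 of the 52 tested were higher in macrophages and 28 lower, with a median log2 difference of −0.27 beside 0.01 over all genes. Of the 10 nuclear partners and repressors tested, 9 were lower against monocytes and 0 higher. They were 6 lower and 1 higher against DCs, 4 and 1 against neutrophils, 7 and 3 against T cells, and 8 and 1 against B cells. Against fibroblasts the order turned, with 2 lower and 6 higher. Against fibroblasts 20 of 59 pathway genes were higher and 33 lower (median −0.48, all genes 0.04). Against DCs 21 of 51 were higher and 14 lower, against T cells 27 of 55 and 15, against B cells 16 of 52 and 13, and against neutrophils 19 of 49 and 12. Beside all these counts stand the shares of all genes tested, higher and then lower in macrophages. They were 32.5% and 32% against monocytes, 34.6% and 32.9% against fibroblasts, and 36.1% and 29.7% against DCs. Against T cells they were 33.9% and 32.4%, against B cells 25.1% and 24.5%, and against neutrophils 39.8% and 19.9%.

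The genes with the largest differences came from every role on that list but the Smads of the related BMP branch. Gdf15, a distant ligand of the family, had a median of 503 CPM in macrophages (207 to 1109) and 33.1 in DCs (11.6 to 87.5), 15.2-fold higher in macrophages in 16 of 16 tags (adjusted p = 4.16e-16). It was among the 3 largest differences toward macrophages in all 6 comparisons. Wwp1, a ubiquitin ligase that acts on Smads and receptors, had 290 CPM in macrophages and 40.4 in DCs (7.65-fold, adjusted p = 1.77e-14), and it was also higher against monocytes (3.64-fold), T cells (2.11-fold) and B cells (1.97-fold). Nrros, which tethers latent TGF-beta on myeloid cells, was 13.6-fold above fibroblasts, and Runx3, a nuclear partner of the Smads, was 9.84-fold above them. Ltbp3, which binds latent TGF-beta, was 3.71-fold above monocytes and 1.63-fold above B cells, and its monocyte call was lost without library 1 (1.03, adjusted p = 0.237). In neutrophils Ltbp3 and Tgfb3 had only 2 molecules each over 9 tags, beside medians of 24.4 and 9.46 CPM in macrophages, and no fold is given.

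Lower in macrophages were Tgif2, a paralogue of Tgif1, with 2.31 CPM against 25.1 in neutrophils, 13.9 in DCs, 12.1 in T cells and 9.55 in B cells. Zfyve9, the Smad anchor SARA, was 3.87-fold below monocytes, and Thbs1, which encodes a matrix protein that frees TGF-beta from its latent form, was 3.38-fold below them with 1688 against 7190 CPM. Snai1, a transcription factor induced by the pathway, had 0.69 CPM in macrophages and 4.15 in monocytes. Without library 1 the calls of Snai1 and Zfyve9 were lost (adjusted p = 0.131 and 0.0683). Itgae, the integrin chain of resident lymphocytes and some DCs and itself on the DC marker list, was 73.8-fold below DCs, 18.6-fold below T cells and 9.04-fold below B cells. Lrrc32, which presents latent TGF-beta, was 6.08-fold below DCs, Tgfbr3, a coreceptor, 7.37-fold below T cells, and Hdac1, a corepressor subunit, 1.39-fold below B cells. Bmpr1a and Id1, a receptor and a target of the related BMP branch, were 9.90-fold and 9.38-fold below neutrophils. Their medians were 2.21 and 1.75 CPM in macrophages and 17.6 and 11.4 CPM in neutrophils. In single neutrophil tags 3 molecules amounted to 6.41 to 34.8 CPM, so these folds rest on few molecules. The matrix genes Postn (on the fibroblast marker list too), Ctgf and Ltbp2 were 572-fold, 375-fold and 323-fold below fibroblasts, with 4051, 2272 and 450.0 CPM there.

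With the classes set in order by median level, 16 of 60 neighbouring pairs passed the threshold, over all members. The order was taken from the same levels, so each step sets classes of close medians against each other. No such count was made over all genes, so the number does not tell whether these members differ from others. Some steps, such as that of Smurf2 from neutrophils to fibroblasts, rest on 3 shared tags. In 1 of the 16 the fit ran against the order of medians, with Tgfbr2 0.12 higher in macrophages than in T cells. For Tgfbr1 only the step from T cells to DCs passed (0.64 ± 0.17, adjusted p = 0.00333), and for Smad2, Smad3 and Smurf2 no step did. The T cells in that step include the cells of more than 1 definition. Without those cells the T cell median of Tgfbr1 was 37.7 CPM, below the 64.6 of DCs, so the order of these medians turned. Skil had 3 steps that passed, from neutrophils to DCs (0.86), from monocytes to B cells (0.40) and from macrophages to fibroblasts (0.87). Tgif1 had 4, with neutrophils above monocytes (0.38), macrophages above B cells (0.18), T cells above DCs (0.38) and DCs above fibroblasts (0.62). The Smad7 steps that passed were T cells over neutrophils (0.49), neutrophils over DCs (0.54) and monocytes over macrophages (0.57).

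Between the classes other than macrophages, DCs differed from neutrophils and from T cells, and neutrophils from T cells, in 8 members each, where 64%, 46.1% and 63% of all genes tested passed. DCs differed from fibroblasts in 7 members (64% of all genes). In 6 members DCs differed from B cells (44.8%) and from monocytes (50.3%), neutrophils from B cells (62.4%) and from monocytes (56.9%), and fibroblasts from B cells (66%) and from T cells (67.9%). Monocytes differed in 4 members from T cells (48.8%), B cells (36.1%) and fibroblasts (46.6%), as neutrophils did from fibroblasts (63.9%). Fibroblasts shared only 3 tags with monocytes and 3 with neutrophils, whereas T and B cells shared 18. Fewer calls between classes with few shared tags need not mean closer levels. T and B cells differed least often, in 3 members (30.5% of all genes), but the mixed cells described above enter both classes. They also enter the counts of T and B cells against the other classes given here. Without those cells 2 members passed between T and B cells over 9 tags (24.1% of all genes), with Smad7 0.90 ± 0.17 higher and Tgfbr1 lower by −0.89 ± 0.26 in T cells.

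Likeness of pattern was measured by Pearson's r over 21 points, the class medians of 7 classes in 3 libraries, on log2(CPM + 5) centred within each library, among 9706 genes. The points share libraries, and the r are descriptions. Tgif1 was most like Cd84 (0.96), Fcgr3 (0.96) and Sdcbp (0.94), and Skil most like Tbc1d15, Mob3a and Traf3 (each 0.95). Smurf2 was most like Kansl1l (0.91), Ski like Chmp3 (0.89), Tgfbr1 like Dtx4 (0.88) and Cpd (0.87), and Tgfbr2 like Serpinb6a (0.87). Smad3 was nearest to Sertad1 (0.86), Smad7 to Ddx50 (0.84) and Thy1 (0.84), Smad2 to Rrp36 (0.84) and Smad4 to Slc44a2 (0.80). Among the members themselves, Tgfbr1 was most like Tgif1 (0.75) and Smad4 ran opposite to Tgfbr2 (−0.71) and Tgfbr1 (−0.61).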

How the data were processed

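Molecules of polyadenylated RNA were counted per gene and cell in 18 tables, 1 per sample tag, from 3 libraries made on the BD Rhapsody platform. The deposited values are counts of molecules, deduplicated and corrected for errors in the molecular identifiers (RSEC), not normalized, per the file headers. The authors used pipeline 1.10 with original beads for libraries 2 and 3, and pipeline 2.0b1 with enhanced beads and intronic reads kept for library 1, per the file headers. Reads were matched to GRCm38 and its GENCODE M19 genes, per the file headers, and settings of the aligner were not given in the sources read.

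A cell needed 200 genes, which 122 of 25762 did not have, and classes were assigned in the order T, B, neutrophil, fibroblast, macrophage, DC, monocyte, the first match winning. The rule asked for at least 2 molecules of Cd3e, Cd3d and Cd3g together, of Cd79a or of Ly6c2, and for at least 1 molecule of Flt3. Neutrophils needed S100a8 and S100a9 at 1% of molecules or more with 1 molecule of Csf3r, fibroblasts Col1a1, Col3a1 and Dcn at 0.5%, and macrophages C1q genes at 0.1%. For each tag and class with at least 20 cells the counts were added up, filtered with filterByExpr, scaled with TMM factors and compared by the quasi-likelihood test of edgeR 4.0.16 (R 4.3.3), in a model that held the tag as a block. Benjamini-Hochberg adjustment covered every gene in a fit, and the threshold was 0.05. The block rests on the labels, by which a tag marks a biological replicate. Deviations of macrophages and T cells of the same tag correlated with a median r of 0.245 over 5703 genes (17 of 18 tags above 0.1), and those of macrophages and neutrophils with 0.0739 (2 of 8). The script was tested on simulated data with known changes. Alternatives were DESeq2 1.42.0 and its size factors, no filter, no block, 50 cells, 500 genes per cell, without cells of more than 1 definition, and without each library. The definitions of DCs and monocytes did not count toward more than 1 definition.

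The members and lists were chosen with earlier results of these data known. Named pathway genes are up to 3 in each direction per comparison with the largest log2 difference among those called, with the same direction in at least 80% of tags and in each library. Of the genes this rule names, 1 is not reported here.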

Additional observations from a re-analysis of the deposited data

Results flagged for a closer look

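In macrophages of library 3, tag 12, Smurf2 stood at 44.4 CPM, farther below the other 5 tags of that library than Dixon's test at 95% allows. The next tag was at 48.9 CPM and the highest at 51, so the gap took 0.674 of the whole range. This was 1 of 30 groups tested (10 genes in macrophages of 3 libraries), where chance flags about 1 in 20.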

How the results depend on the processing

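Counts of members called stayed within 1.5 times of the reported ones except where a library was left out. Without 1 library they ranged from 2 to 9 against monocytes (7 reported), 3 to 7 against neutrophils (7), 3 to 6 against B cells (6) and 5 to 7 against fibroblasts (8). Over all genes they ranged from 896 to 7449 against monocytes (7191 reported) and from 3846 to 6046 against neutrophils (6179). The ranges over all genes were 3865 to 4587 against B cells (5244) and 5525 to 7580 against fibroblasts (7593). With 50 cells per tag and class, 2944 genes were called against B cells (5244 reported), with 6 of 18 tags left, and the fibroblast comparison could not be fitted. Without the tag as a block, 6 members were called against monocytes, 6 against T cells (7 reported), and the other 4 counts of members did not change. Of neighbouring pairs 14 to 16 passed where all of their fits could be made, and no value could be given with 50 cells, without cells of more than 1 definition, without library 1 and without library 3. Without the filter, which added low genes, the median log2 difference of all genes moved to between 0.19 and 0.36, and to 1.23 against neutrophils.

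Signs turned mostly for differences that had not passed. Without the filter these were Smad2 (0.044) and Tgif1 (0.038) against monocytes, Tgif1 against neutrophils (0.016), Smad3 against DCs (0.06), Smad2 (0.068), Smurf2 (0.12) and Skil (0.085) against T cells, and Smurf2 (0.051) and Skil (0.004) against B cells, each still below the shifted median of all genes. With 50 cells they were Tgfbr1 against neutrophils (−0.136), Smad2 against DCs (−0.061), and Smurf2 (0.081) and Skil (0.027) against B cells. DESeq2 gave Smad2 against DCs as −0.002 with its size factors and −0.013 with its Wald test, and Smad3 as 0.026 with the latter, as the fit with no block did (0.064). Without cells of more than 1 definition, Smad2 against T cells was 0.12 and Tgfbr2 against B cells −0.026. Over fits that left out 1 library each, Smad2 ranged from −0.137 to 0.246, Smurf2 from −0.379 to 0.373 and Tgif1 from −0.164 to 0.191 against monocytes, and Tgif1 from −0.276 to 0.184 against neutrophils. Against DCs Smad2 ranged from −0.045 to 0.036, Smad3 from −0.169 to 0.245 and Smurf2 from −0.201 to 0.124. Smurf2 ranged from −0.057 to 0.046 against T cells, Smad2 from −0.058 to 0.089 against B cells and Ski from −0.047 to 0.185 against fibroblasts. Smurf2 against monocytes was the 1 of these that had passed. The cause of these turns was not tested for any setting. Depth was lowest in neutrophils, where 60 molecules of Smad2 and 102 of Smad3 were counted over the 9 tags with at least 20 cells of the class.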
